A study of Mus musculus with 12 samples.

Results

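The aryl hydrocarbon receptor (AHR) pathway was followed through 7 genes in whole mouse kidney: the receptor *Ahr*, its partner *Arnt*, the feedback repressors *Ahrr* and *Tiparp*, and the cytochrome P450 enzymes *Cyp1a1*, *Cyp1a2* and *Cyp1b1*. The genes were chosen by symbol among 24421 symbols, and each symbol was represented by its transcript with the highest summed count over the 12 libraries, so that the rank by summed count is no finding. RNA-seq had been done on kidneys of male mice at 6 weeks of age, labelled C57BL/6 and given as C57BL/6J background in the study's methods, in 4 groups of 3 libraries each. The WT baseline group and the Tet2-/- baseline group were healthy mice without an operation. The WT IR group and the Tet2-/- IR group had renal ischemia-reperfusion (IR): the pedicle of the right kidney was clamped for 60 min, the left kidney was then removed, and tissue was collected at 24 h. No library of a sham-operated mouse was analysed here, so that a difference from baseline includes surgery and loss of the other kidney. The labels give the knockout as Tet2-/- and do not name the allele. Each library is bulk tissue, in which fewer cells of a type and less RNA per cell cannot be told apart, and nothing in the labels says more about the source of the 3 libraries of a group than their number, so that p-values measure the spread between these libraries.

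AHR is a transcription factor of the bHLH-PAS family that waits in the cytosol with HSP90 and other chaperones. Ligands such as dioxins, kynurenine and the uremic toxin indoxyl sulfate send it to the nucleus, where it pairs with ARNT and binds DNA at xenobiotic response elements with the core GCGTG. Its classical targets are the *Cyp1* enzymes, whose products clear the ligand, and *Ahrr* and *Tiparp*, whose products shut the receptor off again, so that these genes are widely read as a measure of AHR activity. In the kidney the pathway is best known from the response to uremic toxins and to tryptophan metabolites.

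The upstream sequences show which of the genes carry the motif of the receptor. GCGTG and the longer form TNGCGTG, which contains the core, were searched on both strands in the 1500 bases before each transcript start, on mm9. *Cyp1a1* held 12 matches of the core, 7 of them of the longer form, the highest number of longer forms among 24351 symbols and reached by this symbol alone (0.0041% of symbols). *Cyp1b1* held 10 core matches and *Ahrr* 6, in each case with 2 of the longer form, and 2.02% of all symbols held at least 2. *Tiparp* held 6 core matches with 1 longer form, *Cyp1a2* held 2 core matches, *Arnt* held 1 and *Ahr* held 0. For comparison, 65.3% of all symbols held at least 1 core match and 16.8% at least 1 longer form in a window of this length. Printed here, because they hold the densest matches or, for *Ahrr*, the bases next to the start, are 250 bases of each of 3 target genes, read 5′ to 3′ on the strand of the gene, with every GCGTG or its reverse complement CACGC in capitals. The *Cyp1a1* stretch is chr9:57544351-57544600 on the plus strand, 1069 to 820 bases before the start, with 5 core matches and 4 longer forms, and it lies inside the span of a longer *Cyp1a1* transcript that begins at 57535735. The *Cyp1b1* stretch is chr17:80115249-80115498 on the minus strand, 1117 to 868 bases before the start, with 4 core matches and 2 longer forms. The *Ahrr* stretch is chr13:74429758-74430007 on the minus strand, ending at the base before the start, with 3 core matches and 1 longer form.
Cyp1a1: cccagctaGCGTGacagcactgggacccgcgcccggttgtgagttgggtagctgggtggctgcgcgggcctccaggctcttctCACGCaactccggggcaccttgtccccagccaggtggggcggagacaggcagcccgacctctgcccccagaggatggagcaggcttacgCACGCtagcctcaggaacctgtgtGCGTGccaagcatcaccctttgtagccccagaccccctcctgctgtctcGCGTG
Cyp1b1: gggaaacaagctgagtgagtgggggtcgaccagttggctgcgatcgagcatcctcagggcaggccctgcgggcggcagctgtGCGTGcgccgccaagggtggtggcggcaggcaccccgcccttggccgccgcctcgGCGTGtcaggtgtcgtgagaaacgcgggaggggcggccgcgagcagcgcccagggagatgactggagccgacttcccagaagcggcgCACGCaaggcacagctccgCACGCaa
Ahrr: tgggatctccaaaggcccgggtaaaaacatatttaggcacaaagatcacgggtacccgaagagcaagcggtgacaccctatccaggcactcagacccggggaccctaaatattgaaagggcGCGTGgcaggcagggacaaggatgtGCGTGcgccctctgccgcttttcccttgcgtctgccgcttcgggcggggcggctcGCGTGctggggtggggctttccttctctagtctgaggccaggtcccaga

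**Figure D1:**
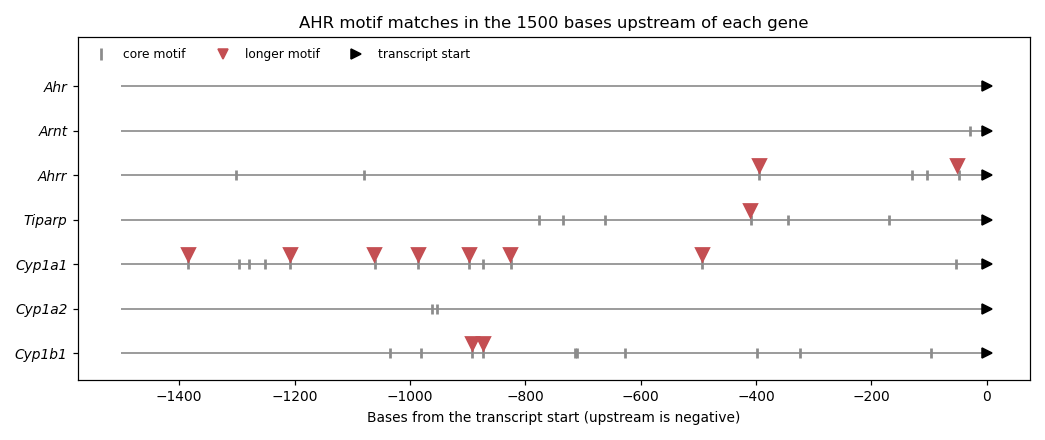
Positions of AHR motif matches in the 1500 bases upstream of the 7 genes. The x axis gives bases from the transcript start, grey ticks are matches of the core motif on either strand and red triangles the longer motif. *Cyp1a1* has 12 ticks and 7 triangles, while *Ahr* has none.

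The libraries held between 51007366 and 107969888 counts on 1 transcript per symbol. *Tet2* did not show the loss of transcript that the labels lead one to look for at baseline: its FPKM (fragments per kilobase of transcript and scaled by library total) was 6.25 to 9.15 in WT baseline and 9.24 to 16.6 in Tet2-/- baseline libraries, while after IR it was 3.86 to 9.34 in WT and 1.76 to 3.20 in Tet2-/- libraries. The groups are therefore called by their labels throughout. The kidney markers fitted the tissue, with a summed FPKM of 8 proximal tubule markers of 14366 to 52944, and the injury markers *Havcr1* and *Lcn2* summed to 3.94 to 24.2 FPKM at baseline, 288.0 to 1035 in WT IR and 2340 to 2716 in Tet2-/- IR libraries. Some libraries stood apart in cell type markers. Adipocyte markers summed to 135.1 and 276.8 FPKM in WT baseline replicates 2 and 3 and to 608.2 in Tet2-/- IR replicate 3, against 17.0 to 115.9 in the other 9, and WT IR replicate 3 had the lowest endothelial, fibroblast and podocyte marker sums of the 12 libraries. The groups also differed in neutrophil markers, whose 6 genes summed to 74.3 to 131.2 FPKM in Tet2-/- IR, 4.02 to 9.36 in WT IR and 0.605 to 2.75 in baseline libraries. The 4 podocyte markers summed to 40.7 to 85.4 FPKM in Tet2-/- IR, 3.10 to 24.3 in WT IR and 13.1 to 25.5 in baseline libraries.

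None of the 7 genes passed the limits of the comparison between any pair of groups. *Arnt* varied least between the groups, *Cyp1a2* was all but absent, and the repressor *Ahrr*, the gene with the widest spread, had its highest values in WT baseline kidneys. A gene was called when the adjusted p (edgeR's quasi-likelihood test, Benjamini-Hochberg over all genes tested) was under 0.05 and the log2 fold change over 1 in size. The test covered 6 of the 7 genes, since *Cyp1a2* did not pass the filter on low counts. Between genotypes at baseline, 0 of these 6 were called, where 0.0124% of 16086 genes tested were. Between genotypes after IR, 0 of 6 were called, where 6.15% of 16186 genes were. For IR against baseline, 0 of 6 were called in WT kidneys, where 2.35% of 16015 genes were, and 0 of 6 in Tet2-/- kidneys, where 24.3% of 16359 genes were. The difference of the IR effects between the genotypes was called by the adjusted p alone for 0 of 6, where 9.18% of 16741 genes were, 3.79% with a higher and 5.39% with a lower effect in Tet2-/- kidneys. The counts at an unadjusted p under 0.05 were 1, 2, 1, 0 and 0 in this order of comparisons, against 11.8%, 28.9%, 22.7%, 51.8% and 27.2% of all genes. DESeq2 called 1 of 6 at baseline and 1 of 6 for IR in WT, *Ahrr* both times, where it called 321 of 16086 and 978 of 16015 genes. With the replicate number as a block, edgeR also called *Ahrr* for IR in WT, where it called 987 of 16015 genes. Library totals alone in place of TMM scaling raised the median log2 fold change of all genes in the Tet2-/- IR effect from 0.04 to 0.27, and FPKM, which is scaled by library totals, shares this shift.

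Per length of transcript, the levels differed widely between the genes. The mean FPKM over the 12 libraries was 6.66 for *Arnt*, 5.45 for *Tiparp*, 2.29 for *Cyp1b1*, 1.03 for *Ahr*, 0.338 for *Cyp1a1*, 0.150 for *Ahrr* and 0.0016 for *Cyp1a2*. *Arnt* and *Tiparp* overlapped, with library values of 5.49 to 8.05 and 4.16 to 7.59. *Cyp1b1* at 0.410 to 3.61 overlapped with *Ahr* at 0.660 to 1.62. *Ahr* did not overlap with *Cyp1a1* at 0.0670 to 0.644, and *Cyp1a1* overlapped with *Ahrr* at 0.00500 to 1.11. The receptor had a higher mean FPKM than 50.2% of all symbols, and *Cyp1a1* than 42.2%.

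**Figure D2:**
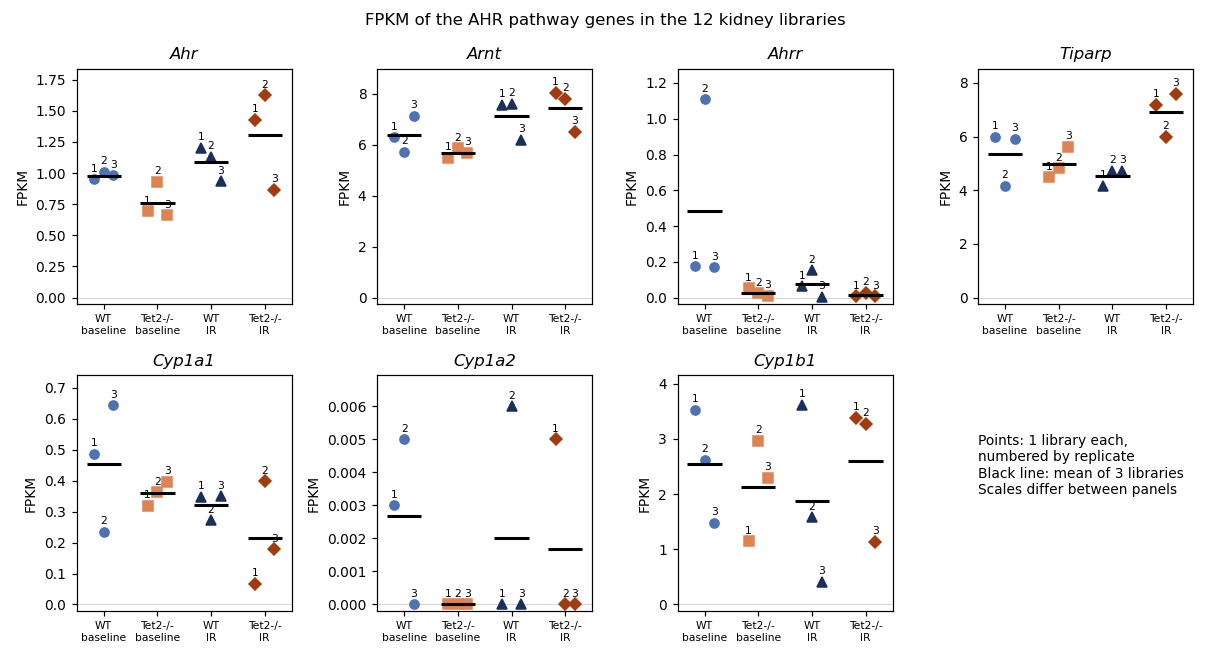
FPKM (y axis, a scale of its own in each panel) of the 7 genes in the 4 groups. Points are libraries numbered by replicate and black lines are means of 3. *Ahrr* stands at 1.11 in WT baseline replicate 2, the *Tiparp* points of Tet2-/- IR lie at 6.00 to 7.59 above the WT IR points at 4.16 to 4.73, and *Cyp1a2* is at or near 0 throughout.

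*Ahr* (NM_013464, chr12:36182651-36219661, minus strand) encodes the receptor itself. Its FPKM in replicates 1, 2 and 3 was 0.951, 1.01 and 0.982 in WT baseline and 0.694, 0.932 and 0.660 in Tet2-/- baseline kidneys. After IR it was 1.20, 1.13 and 0.933 in WT and 1.43, 1.62 and 0.864 in Tet2-/- kidneys. The 3 WT baseline libraries were almost equal and all lay above the Tet2-/- baseline libraries, though with CPM, the counts scaled by TMM library size and not by length, Tet2-/- baseline replicate 2, at 7.59, lay within the WT range of 7.39 to 7.80, where 18.7% of all genes had no overlap. Ordered by mean, the groups were Tet2-/- baseline at 0.762 ± 0.148 (SD, n = 3), WT baseline at 0.980 ± 0.0285, WT IR at 1.09 ± 0.140 and Tet2-/- IR at 1.30 ± 0.394, and only the lowest pair of neighbours in this order did not overlap in FPKM. The log2 fold change between genotypes was −0.27 at baseline (standard error 0.19, adjusted p = 0.559) and 0.15 after IR (standard error 0.24, adjusted p = 0.713). The largest of the IR effects was in Tet2-/- kidneys, with a log2 fold change of 0.50 (95% interval −0.10 to 1.11, adjusted p = 0.154), against 0.09 (−0.30 to 0.47, adjusted p = 0.796) in WT kidneys. Their difference was 0.46 (−0.20 to 1.11, adjusted p = 0.351).

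*Arnt* (NM_001037737, chr3:95238312-95301161, plus strand) encodes the partner that AHR shares with the hypoxia-inducible factors. Its FPKM was 6.30, 5.74 and 7.14 in WT baseline and 5.49, 5.87 and 5.68 in Tet2-/- baseline kidneys, and 7.57, 7.61 and 6.20 in WT IR and 8.05, 7.79 and 6.51 in Tet2-/- IR kidneys. This was the steadiest of the 7 genes. All Tet2-/- IR libraries lay above all Tet2-/- baseline libraries, as did those of *Tiparp*, so that 2 of the 6 tested genes did not overlap in FPKM for the IR effect in Tet2-/- kidneys, where 58.3% of all genes did not. With TMM-scaled CPM, where 56.8% of all genes did not overlap, *Tiparp* overlapped. The fitted log2 fold changes lay between −0.08 (genotype at baseline) and 0.13 (IR in Tet2-/- kidneys), with 95% intervals within −0.36 and 0.40 in the comparisons of 6 libraries. The value for the genotype after IR, −0.03, was 0.07 with library totals alone.

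*Ahrr* (NM_009644, chr13:74348566-74429757, minus strand) encodes a repressor that resembles AHR and competes with it for ARNT and for the same DNA. Its FPKM was 0.174, 1.11 and 0.169 in WT baseline kidneys, from 72, 518 and 74.5 counts. It was 0.0510, 0.0230 and 0.00900 in Tet2-/- baseline kidneys, from 18, 16 and 4 counts. After IR it was 0.0630, 0.152 and 0.00500 in WT kidneys and 0.00600, 0.0260 and 0.00700 in Tet2-/- kidneys, with 2 to 62 and 3 to 16 counts. WT baseline replicate 2 was far above every other library, and the other WT baseline libraries also lay above all libraries of the 3 other groups. Tet2-/- baseline and WT IR overlapped, as did both with Tet2-/- IR.

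At baseline *Ahrr* in Tet2-/- against WT kidneys gave a log2 difference of −4.10 (standard error 0.96, unadjusted p = 0.00329, adjusted p = 0.239). Without WT baseline replicate 2 it was −2.59 (adjusted p = 0.166), and DESeq2 gave −4.07 with an adjusted p of 0.000162. *Ahrr* and *Ahr* were the 2 of 6 tested genes whose FPKM did not overlap between the genotypes at baseline, both lower in Tet2-/- libraries, where 19.5% of all genes did not overlap. For IR in WT kidneys the *Ahrr* difference was −2.81 on the log2 scale (standard error 1.11, adjusted p = 0.194), and *Ahrr* was the 1 gene of 6 without overlap in FPKM, where 29.3% of all genes had none. That comparison passed with the replicate number as a block (−2.84, adjusted p = 0.0257) and in DESeq2 (−2.83, adjusted p = 0.0399), and without WT baseline replicate 2 the value was −1.32 (adjusted p = 0.507). After IR the genotypes differed by −2.51 (standard error 1.04, adjusted p = 0.167), with overlapping libraries, and the value was −1.41 without WT IR replicate 2. The IR effect in Tet2-/- kidneys was −1.27 (standard error 0.77, adjusted p = 0.220), and −0.58 without Tet2-/- baseline replicate 1. The difference of the IR effects was 1.57 (95% interval −1.76 to 4.91, adjusted p = 0.540), and 0.04 without WT baseline replicate 2.

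The genes closest to *Ahrr* in pattern were *9130409J20Rik*, *Wnt9b* and *Atp10b*, with a root mean square difference of 0.618, 0.830 and 0.839 in centred log2 CPM over the 12 libraries, where *Ahrr* itself had a standard deviation of 2.05. The search covered 12197 genes whose mean over the libraries was 1 FPKM or more. All 3 were highest in WT baseline replicate 2, with 11.8, 9.43 and 4.65 FPKM, against at most 4.06, 2.82 and 1.64 in the other 11 libraries, which follows from their choice by likeness to *Ahrr*. That library also had the highest *Aqp2* of the 12, named after its values were seen, the water channel of collecting duct principal cells, at 775.4 FPKM against 184.2 to 482.5. The 4 collecting duct markers together summed to 869.7 there, against 484.3 and 485.1 in the other WT baseline libraries, 274.9 to 527.8 in Tet2-/- baseline, 431.0 to 669.4 in WT IR and 260.3 to 434.6 in Tet2-/- IR libraries, and none of the 4 was near 0. *Aqp2* alone of the 4 was highest in that library. Collecting duct was not the only cell type that stood out there: the endothelial sum, at 204.8 FPKM, and the proximal tubule sum, at 52944 against at most 52707 elsewhere, were also the highest of the 12. Over the 12 libraries, as a description, Pearson's r between *Ahrr* and the mean log2 CPM of the marker lists ran from −0.618 for neutrophils to 0.579 for hepatocytes, with 0.519 for collecting duct. The part of cell composition in the *Ahrr* values was not tested.

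*Tiparp* (NM_178892, chr3:65332369-65359440, plus strand) encodes a mono-ADP-ribosyltransferase that is induced by AHR and restrains it. Its FPKM was 5.99, 4.17 and 5.91 in WT baseline, 4.48, 4.81 and 5.63 in Tet2-/- baseline, and 4.16, 4.73 and 4.73 in WT IR kidneys. In Tet2-/- IR kidneys it was 7.19, 6.00 and 7.59. Every Tet2-/- IR library lay above every other library of the series in FPKM, by as little as 5.999 against 5.987, but in TMM-scaled CPM replicate 2, at 29.0, lay below 4 baseline libraries, at 29.6 to 35.5. Between the genotypes after IR, *Tiparp* was the 1 gene of 6 without overlap in FPKM, where 36.6% of all genes had none, and it did not overlap in TMM-scaled CPM either, where 36.3% of all genes had none. Its log2 fold change was 0.52 (95% interval 0.10 to 0.93, unadjusted p = 0.0209, adjusted p = 0.106), which is under the fold limit of the calls, and it stayed between 0.39 and 0.65 in 16 alternative settings. The neutrophil and podocyte marker sums given above also separated these groups, and their part in the difference was not tested. The IR effect was −0.30 in WT (−0.74 to 0.14, adjusted p = 0.379) and 0.23 in Tet2-/- kidneys (−0.18 to 0.63, adjusted p = 0.320). The difference of the IR effects was 0.57 (−0.01 to 1.16, unadjusted p = 0.0547, adjusted p = 0.194). At baseline the genotypes differed by −0.01 (−0.43 to 0.40, adjusted p = 0.976). The gene overlaps *4931440P22Rik* on the other strand, and the strand setting of the counting is not given in the sources used here, so that reads of the pair cannot be told apart. The transcripts of *4931440P22Rik* summed to 0.517 to 0.976 FPKM.

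*Cyp1a1* (NM_001136059, chr9:57545420-57551631, plus strand) is the enzyme most strongly induced by AHR ligands in most tissues. Its FPKM was 0.487, 0.234 and 0.644 in WT baseline and 0.319, 0.363 and 0.396 in Tet2-/- baseline kidneys. After IR it was 0.347, 0.272 and 0.349 in WT and 0.0670, 0.398 and 0.178 in Tet2-/- kidneys, from 19.5, 134 and 44 counts in the latter. The groups overlapped in every comparison, and the Tet2-/- IR group held both the lowest value of the series and one above all WT IR libraries. By mean the order was WT baseline at 0.455 ± 0.207 (SD, n = 3), Tet2-/- baseline at 0.359 ± 0.0386, WT IR at 0.323 ± 0.0439 and Tet2-/- IR at 0.214 ± 0.168, in which no neighbours differed beyond their spread. The IR effect in Tet2-/- kidneys was −1.03 (standard error 0.56, adjusted p = 0.175), and without Tet2-/- IR replicate 2 it was −1.73 and passed (adjusted p = 0.0341). In WT kidneys it was −0.56 (standard error 0.42, adjusted p = 0.474). The genotypes differed by −0.25 at baseline (standard error 0.39, adjusted p = 0.790), which turned to 0.10 without WT baseline replicate 3, and by −0.72 after IR (standard error 0.59, adjusted p = 0.460). The difference of the IR effects was −0.44 (95% interval −2.04 to 1.17, adjusted p = 0.742).

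The pattern of *Cyp1a1* was closest to that of *Car12*, *Atp6v1b1* and *1700040L02Rik*, at root mean square differences of 0.321, 0.342 and 0.365, with a standard deviation of 0.790 for *Cyp1a1*. *Atp6v1b1*, a proton pump subunit of the intercalated cells of the collecting duct, was at 18.9 to 32.2 FPKM in the WT baseline, 23.2 to 27.5 in the Tet2-/- baseline and 23.9 to 35.3 in the WT IR libraries. In Tet2-/- IR libraries it was 8.46, 28.2 and 9.57, low in replicates 1 and 3 as *Cyp1a1* was. *Atp6v1b1* was found by its likeness to *Cyp1a1*, so that their shared pattern is set by that choice. As the mean log2 CPM of whole lists, markers of the proximal tubule and of the distal convoluted tubule had Pearson's r of 0.692 and 0.677 with *Cyp1a1* over the 12 libraries, and those of the collecting duct 0.591, as a description of libraries that share groups and scaling. The part of cell composition in the *Cyp1a1* values was not tested.

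*Cyp1a2* (NM_009993, chr9:57524744-57531462, minus strand) lies next to *Cyp1a1* in the opposite orientation and is chiefly an enzyme of the liver. It had at most 1 count in any library and 3.5 counts over all 12. Every library was thus under the limit that a count of 0 allows, 3 counts or 0.0278 to 0.0588 CPM depending on the library, which covers counting error only. No fold or test is given, and no difference between groups was detectable at this depth.

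*Cyp1b1* (NM_009994, chr17:80106293-80114381, minus strand) encodes an enzyme of steroid and retinoid oxidation that is found in vascular and mesenchymal cells. Its FPKM was 3.53, 2.63 and 1.48 in WT baseline and 1.15, 2.97 and 2.30 in Tet2-/- baseline kidneys, and 3.61, 1.58 and 0.410 in WT IR and 3.38, 3.28 and 1.13 in Tet2-/- IR kidneys. All 4 groups overlapped, and the spread within WT IR was as wide as that of the whole series. The log2 fold changes were −0.15 (95% interval −1.09 to 0.79) for the genotype at baseline, 0.40 (−1.25 to 2.04) for the genotype after IR, −0.55 (−2.12 to 1.03) for IR in WT and −0.01 (−1.06 to 1.04) for IR in Tet2-/- kidneys. The adjusted p was 0.666 or above for each of these, and 0.718 for the difference of the IR effects at 0.58 (−1.39 to 2.55). Each interval held changes in either direction. Without WT IR replicate 3, the genotype difference after IR was −0.08, and with library totals alone the IR effect in Tet2-/- kidneys was 0.25.

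The variation of *Cyp1b1* between libraries followed that of several marker lists, the endothelial list most closely (Pearson's r of 0.933 over the 12 libraries, as a description). The closest genes to *Cyp1b1* in pattern were *Adgrl4*, an adhesion receptor of endothelium, *Rem1* and *Fam167b*, at root mean square differences of 0.251, 0.260 and 0.271, where *Cyp1b1* had a standard deviation of 0.868. These genes were found by their likeness to *Cyp1b1*, so that their shared pattern is set by that choice. The 7 endothelial markers summed to 74.0 to 204.8 FPKM in WT baseline, 61.9 to 105.6 in Tet2-/- baseline, 14.8 to 111.4 in WT IR and 49.5 to 145.5 in Tet2-/- IR libraries. None of the 7 was at 0 in any library, and none was called in any of the 5 comparisons. WT IR replicate 3 had both the lowest *Cyp1b1* and the lowest sum. *Cyp1b1* ranged over 8.81-fold across the 12 libraries and the endothelial sum over 13.9-fold, while their ratio ranged over 2.59-fold. Fibroblast and pericyte markers also moved with the gene, with sums of 11.2 in WT IR replicate 3 and 13.3 in Tet2-/- IR replicate 3 against 23.4 to 74.7 in the other 10. As the mean log2 CPM of whole lists, macrophage markers had Pearson's r of 0.784 and smooth muscle markers 0.608 with *Cyp1b1* over the 12 libraries, beside 0.853 for fibroblast and pericyte markers, again as a description. How far cell composition set the *Cyp1b1* values was not tested.

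**Figure D3:**
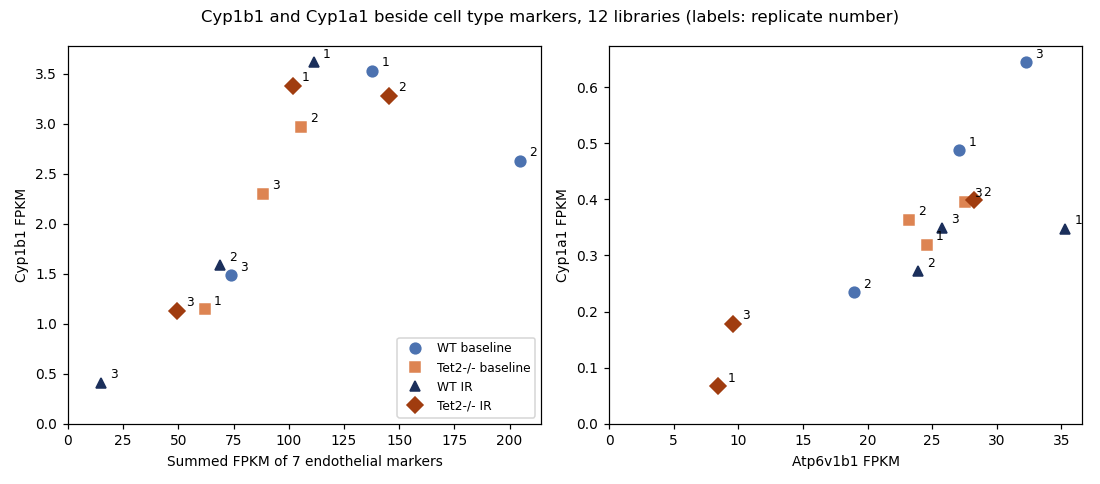
*Cyp1b1* FPKM against the summed FPKM of 7 endothelial markers (left) and *Cyp1a1* FPKM against *Atp6v1b1* FPKM (right), 1 point per library, with symbols for the 4 groups and numbers for replicates. Libraries of all groups lie along a shared rise in the left plot, and in the right plot Tet2-/- IR replicates 1 and 3 are lowest on both axes.

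**Figure D4:**
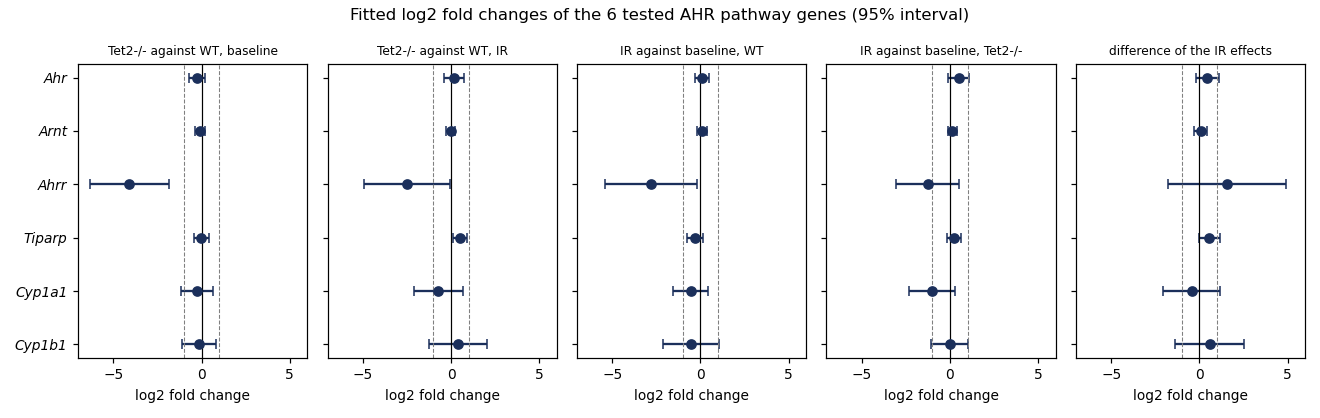
Fitted log2 fold changes of the 6 tested genes (points) with 95% intervals (bars) in the 5 comparisons, with dashed lines at the fold limit of 1. Intervals of *Arnt* are the narrowest and those of *Ahrr*, from −4.10 to 1.57 at the points, are the widest, and the intervals of *Ahr* and *Tiparp* for the difference of the IR effects reach 1.11 and 1.16, past the dashed line.

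The closest patterns to the other genes were found over a narrow range of values. *Ahr* was nearest to *Bicd2*, *Smchd1* and *Ephb4*, at 0.112, 0.125 and 0.128 with a standard deviation of 0.278 for *Ahr*. *Arnt* was nearest to *Faf2*, *Numb* and *Nvl*, at 0.0647, 0.0709 and 0.0729 with a standard deviation of 0.127. *Tiparp* was nearest to *Mir7013*, *Rbm33* and *Zkscan6*, at 0.137, 0.154 and 0.166 with a standard deviation of 0.273. *Zkscan6* shared with *Tiparp* that its Tet2-/- IR libraries, at 3.72 to 3.94 FPKM, lay above the other 9, at 2.53 to 2.84. So did *Mir7013*, at 7.60 to 8.63 against at most 6.84 FPKM. *Rbm33* did not, with 4.99 FPKM in Tet2-/- IR replicate 2 and 5.705 in WT baseline replicate 3. All were found by their likeness to *Tiparp*, so that a shared pattern is set by that choice.

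Beyond the 7 genes, 65 genes of the pathway in 5 lists were read in the same fits. Among 17 other genes known as AHR targets, 14 were tested for the IR effect in WT kidneys and 5 rose, with 0 lower, where 1.46% of all genes rose and 0.887% fell. In Tet2-/- kidneys 10 of 16 tested rose and 0 fell, where 12.7% of all genes rose and 11.6% fell. The median log2 fold change of the list was 0.55 in WT and 1.69 in Tet2-/- kidneys, beside −0.03 and 0.04 over all genes. *Gsta1*, a glutathione S-transferase, was at 0.0530 to 0.315 FPKM in WT baseline and 4.10 to 5.76 in WT IR libraries, and at 0.0970 to 0.141 in Tet2-/- baseline and 10.6 to 34.9 in Tet2-/- IR libraries. It rose by 5.04 on the log2 scale in WT (standard error 0.74, adjusted p = 0.0224) and by 7.51 in Tet2-/- kidneys (standard error 0.54, adjusted p = 0.000130). *Cyp2a5*, the coumarin hydroxylase, rose by 3.32 in WT (adjusted p = 0.0239) and 3.05 in Tet2-/- kidneys (adjusted p = 0.00169). *Gsta2* rose by 3.20 (adjusted p = 0.0186) and 2.30 (adjusted p = 0.0161). *Nqo1*, a quinone reductase, and *Cyp2s1* were the other two called in WT kidneys, named after their values were seen, at 1.97 and 1.84 in WT, calls lost in 4 and 2 of 17 alternatives, and 1.74 and 1.83 in Tet2-/- kidneys. *Nqo1* and the glutathione S-transferases are also classical targets of NRF2, the factor encoded by *Nfe2l2*. That gene is itself on the list and is named after its values were seen. Its transcript rose by 1.16 in Tet2-/- kidneys (adjusted p = 0.00625), while in WT kidneys it was at 0.43 (adjusted p = 0.199) and not called. The activity of NRF2 was not measured, and its part in these rises was not tested. Reads of *Gsta1* and *Gsta2*, and of *Cyp2a5* and its close relatives, may be shared between copies. The target list also holds *Ugt1a6a*, *Ugt1a6b* and *Ugt1a7c*, named after their values were seen. Their counts were nearly the same, at most 37804.5, 37790.5 and 40610 in WT baseline libraries, so that they are not separate signals in the list counts and medians.

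The number of calls in WT kidneys changed with the libraries used. The number of pathway genes called higher, over all 5 lists, was 5 with all libraries, 0 without WT baseline replicate 3, 1 without WT IR replicate 2, 2 without WT baseline replicate 2 or WT IR replicate 3, and 5 and 7 without the remaining ones. When 1 library was left out the log2 fold changes were 4.63 to 6.503 for *Gsta1*, 2.99 to 3.89 for *Cyp2a5* and 2.87 to 3.81 for *Gsta2*, and they stayed at or above 2.34, 2.59 and 2.43 in the 17 alternatives run for each. With the replicate block the lists had 8 genes higher and 4 lower in WT kidneys, where 428 and 559 of all genes were called. In Tet2-/- kidneys the calls of *Gsta1*, *Cyp2a5* and *Gsta2* held in each of the 16 alternatives run. Between the genotypes after IR, 2 of 16 targets were called higher, where 2.3% of all genes were: *Gsta1* at 2.22 (adjusted p = 0.0234) and *Ereg*, an EGF receptor ligand named after its values were seen, at 0.0540 to 0.205 FPKM in Tet2-/- IR libraries, at 3.26 (adjusted p = 0.0279). The call of *Gsta1* was lost in 4 of 6 leave-one-out fits, those without WT IR replicate 1 or 3 or Tet2-/- IR replicate 2 or 3 (adjusted p from 0.0564 to 0.0844). The call of *Ereg* was lost in 7 of 16 alternatives, with limma at either pseudocount and in 5 of 6 leave-one-out fits, all but the one without Tet2-/- IR replicate 3, and with a mean FPKM of at least 1 it was not tested. Neutrophil and podocyte markers were also higher in Tet2-/- IR than in WT IR libraries, as given above, and their part in these differences was not tested. *Aldh3a1*, an aldehyde dehydrogenase among the targets and named after its values were seen, had 0.353 to 1.52 FPKM in WT baseline and 0.0410 to 0.0820 in Tet2-/- baseline libraries, a log2 fold change of −4.08 that was not called (unadjusted p = 0.000241, adjusted p = 0.206). It rose with IR in Tet2-/- kidneys by 3.12 (adjusted p = 0.0109), a call lost in 1 of 16 alternatives and not tested in another.

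**Figure D5:**
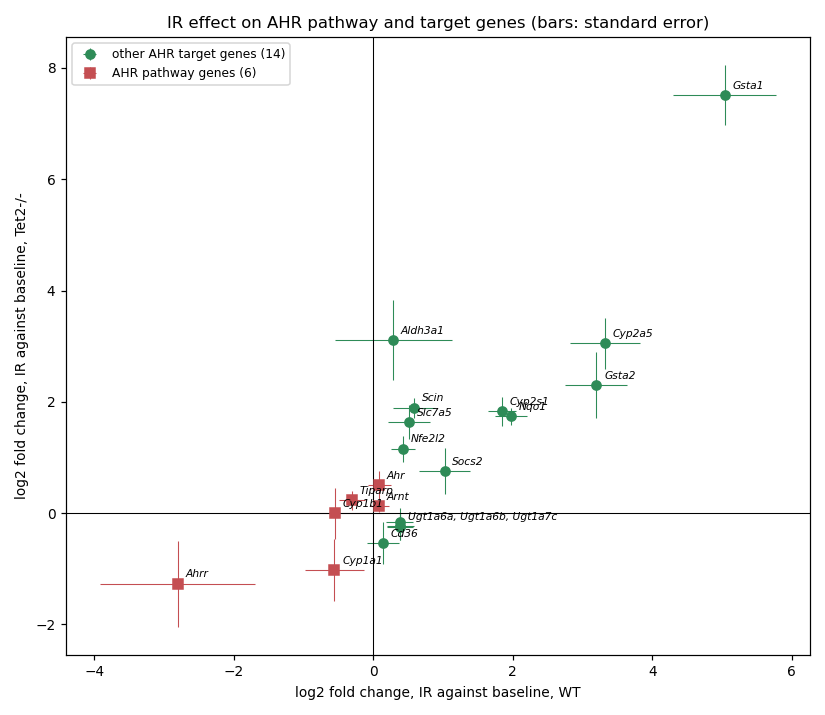
Log2 fold change of IR against baseline in WT (x axis) and in Tet2-/- kidneys (y axis) for 14 other AHR target genes (green circles) and 6 AHR pathway genes (red squares), with standard errors as bars. *Gsta1*, *Cyp2a5*, *Gsta2*, *Cyp2s1* and *Nqo1* lie at 1.84 or above on the x axis and 1.74 or above on the y axis, and the red squares lie near or below 0 on the x axis.

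Several genes that make or remove AHR ligands were lower in Tet2-/- than in WT kidneys after IR. Of the list of ligand supply and clearance, 5 of 12 tested were lower in Tet2-/- than in WT kidneys after IR and 0 were higher, where 3.85% of all genes were lower, with a median log2 fold change of −1.27. *Ido2*, an enzyme at the entry of the kynurenine pathway, had 3.48 to 8.87 FPKM in WT IR and 0.104 to 0.501 in Tet2-/- IR libraries, a difference of −4.31 on the log2 scale (standard error 0.62, adjusted p = 0.0138). *Kynu*, which cleaves kynurenines, had 1.48 to 3.85 in WT IR and 0.277 to 0.551 in Tet2-/- IR libraries, at −2.73 (adjusted p = 0.0158). At baseline it had 0.195 to 1.15 in WT and 0.309 to 0.635 in Tet2-/- libraries, and the IR effect was 1.97 in WT (unadjusted p = 0.0185, adjusted p = 0.143) and −0.64 in Tet2-/- kidneys (adjusted p = 0.216), neither of them called. *Aadat*, an aminotransferase that forms kynurenic acid, had 39.2 to 115.5 and 8.34 to 20.4 FPKM, at −2.32 (adjusted p = 0.0378). *Kmo* at −1.85 and *Afmid* at −1.32, both of the same pathway, were the other 2, named after their values were seen, and their calls held in all 16 alternatives. Without Tet2-/- IR replicate 1 the calls were lost for *Ido2* (−4.28, adjusted p = 0.0537) and *Kynu* (−2.53, adjusted p = 0.0517), with values of nearly the same size, and for *Aadat* the call was lost in 5 leave-one-out fits, at −2.70 to −1.65. IR lowered 2 of 12 in WT kidneys, where 0.887% of all genes fell, *Cyp2e1* at −1.58 (adjusted p = 0.0265) and *Sult1a1* at −1.29 (adjusted p = 0.0330), the latter a sulfotransferase that makes indoxyl sulfate, and each call was lost in 6 of 17 alternatives. In Tet2-/- kidneys 7 of 12 fell and 0 rose, where 11.6% of all genes fell and 12.7% rose, among them *Ido2* at −4.38, *Aadat* at −3.87 and *Cyp2e1* at −2.60. Some of the 8 proximal tubule markers moved with this list and others did not. The sum of the 8 markers is mostly *Kap*, at 20100 to 23749 FPKM in WT IR and 13868 to 22443 in Tet2-/- IR libraries, which overlap, while 4 of the 8 markers were called lower in Tet2-/- than in WT kidneys after IR. These were *Slc34a1* (476.8 to 760.0 against 187.8 to 228.3 FPKM), *Lrp2* (57.6 to 87.9 against 19.0 to 23.8), *Cubn* (26.4 to 33.6 against 6.70 to 10.4) and *Aqp1* (361.8 to 649.5 against 54.7 to 147.8), at log2 fold changes of −1.74, −1.81, −1.87 and −2.21. *Miox* was at 198.0 to 341.2 FPKM in WT IR and 78.2 to 141.4 in Tet2-/- IR libraries. The libraries overlapped for *Slc5a2*, at 7.48 to 102.4 and 39.5 to 93.4, and for *Slc5a12*, at 1.48 to 35.0 and 3.62 to 20.4. The part of proximal tubule cells in the ligand gene differences was not tested. *Ido1* and *Tdo2*, the other entry enzymes and named after their values were seen, had at most 0.0890 FPKM in any library.

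Of the 7 genes of the complex that holds AHR in the cytosol, only *Src* was called in any comparison, higher with IR in Tet2-/- kidneys, where 12.7% of all genes were, by 1.15 (adjusted p = 0.000787), with 19.3 to 23.2 FPKM in Tet2-/- IR against 7.90 to 8.18 in Tet2-/- baseline libraries. Some values passed the adjusted p but not the fold limit: for IR in Tet2-/- kidneys *Tbl3* was at 0.76 (adjusted p = 0.00214) and *Cul4b* at 0.43 (adjusted p = 0.0197), and between the genotypes after IR *Src* was at 0.87 (adjusted p = 0.0282). *Hsp90aa1*, *Hsp90ab1* and *Ptges3*, named for their role in the complex after their values were seen, had log2 fold changes between −0.39 and 0.37 in the 5 comparisons. Of 11 coregulators, *Nrip1* rose with IR in Tet2-/- kidneys, where 12.7% of all genes rose, by 1.69 (adjusted p = 0.0132). That call was lost in 2 of 16 alternatives, and the other 10 coregulators were not called in any comparison.

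The bHLH-PAS list of 16 other genes held factors of the family to which AHR and ARNT belong, and the *Per* genes. The latter encode PAS proteins without a DNA-binding bHLH domain. IR called 0 of 14 tested genes of the list in WT kidneys, where 2.35% of all genes were called. In Tet2-/- kidneys it called 8 of 15, 5 higher and 3 lower, where 12.7% and 11.6% of all genes were. The 3 lower were all *Per* genes. *Arnt2*, the close relative of *Arnt*, was at 3.33 to 3.56 FPKM in Tet2-/- baseline and 11.1 to 26.1 in Tet2-/- IR libraries, and rose by 2.06 (adjusted p = 0.00167). In WT kidneys it was at 3.35 to 5.32 and 6.67 to 13.8 FPKM, where it was not called. *Arntl2* and *Arntl*, partners in the circadian clock, rose by 1.61 each in Tet2-/- kidneys (adjusted p = 0.0361 and 0.0215), though these calls were lost in 6 and 4 of 16 alternatives. *Hif1a* at 1.16 and *Npas2* at 1.69 were the other two, named after their values were seen, with calls lost in 1 and 3 of 16 alternatives and *Npas2* not tested in another. The clock repressors *Per3*, *Per2* and *Per1* fell by 1.99, 1.61 and 1.07. Of these, *Per2* and *Per3* were also lower in Tet2-/- than in WT kidneys after IR, at −1.32 (adjusted p = 0.0235) and −1.25 (adjusted p = 0.0304), the 2 of 15 tested that were called, where 3.85% of all genes were lower. The call between genotypes was lost in 3 of 16 alternatives for *Per2* and 7 of 16 for *Per3*, and the fall of *Per1* in 5 of 16. *Arnt* itself was not called in any of the 5 comparisons.

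Between genotypes at baseline, edgeR called 0 genes of the 5 lists. At an unadjusted p under 0.05 there were 3 of 13 targets, 3 of 11 coregulators, 2 of 15 genes of the bHLH-PAS list and 0 in the other lists, where 11.8% of all genes were, and DESeq2 called 2 genes lower, where it called 298 lower of all.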

How the data were processed

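RNA-seq libraries of whole kidney, 3 in each of 4 groups, were compared. The authors used STAR for alignment (mm9), HOMER for counts over RefSeq transcripts and edgeR for testing, and the versions and the strand setting are not given in the sources used here. They deposited estimated counts per transcript, of which 38.7% were not whole numbers (steps of 0.5), and FPKM values per transcript, scaled by length and library total. No column of another sample was present.

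From the deposited counts, 1 transcript per symbol was kept (34600 transcripts, 24421 symbols, 5569 symbols with more than 1), and counts were rounded to whole numbers, where whole counts had been assumed. Each pair of groups was tested on its 6 libraries with edgeR 4.0.16 (R 4.3.3) by the quasi-likelihood test after filterByExpr and TMM scaling, and the difference of the IR effects on all 12 libraries. Benjamini-Hochberg adjustment covered all genes tested. Calls needed an adjusted p under 0.05 and, for pairs of groups, a log2 fold change over 1 in size. Intervals are 95% from the fit's t quantile. FPKM served for levels and for limma 3.58.1 on log2(FPKM + 1) or log2(FPKM + 0.1), and DESeq2 1.42.0, other scalings and filters, a replicate block and leaving out libraries were alternatives. The fitting steps were tested on simulated data. Sequences were read from the mm9 genome with pysam 0.24.0.

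The 7 genes and the gene and marker lists were chosen with earlier results of these data known. Besides the 7 genes and *Tet2*, the text names from each list and comparison up to 3 called genes per direction with the largest change, provided that 1 of the groups averaged 1 FPKM or more, and the 3 genes nearest in pattern to each of the 7. Marker genes come from the marker lists, and other names were chosen after their values were seen.

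Replicate numbers in the labels are shared between groups. The deviations of same-numbered libraries from their group means correlated at 0.344 to 0.349 for IR against baseline in WT and at 0.12, 0.35 and 0.202 in Tet2-/- kidneys, so that blocked values are given where they change a call. Between genotypes the correlations were −0.173 to 0.0524 at baseline and −0.000229 to 0.303 after IR, which does not pair the libraries.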

Additional observations from a re-analysis of the deposited data

Results flagged for a closer look

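The IR effect differed between the genotypes, by edgeR's test of the difference itself (Benjamini-Hochberg over all genes tested, 12 libraries), for *Tet2*, for 2 of 16 target genes, 2 of 13 ligand enzymes and transporters, 3 of 15 genes of the bHLH-PAS list and 0 of the 7 AHR pathway genes (6 tested), where 9.18% of all genes tested differed. Positive values mean a higher IR effect in Tet2-/- kidneys. The difference was −2.001 on the log2 scale for *Tet2* (standard error 0.48, adjusted p = 0.0285), whose Tet2-/- baseline libraries were not below the WT ones.

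Among the ligand genes it was −4.23 for *Ido2* (standard error 0.66, adjusted p = 0.00549) and −1.31 for *Afmid* (standard error 0.23, adjusted p = 0.00913). Each of these calls was lost in 1 of 22 alternatives. In the bHLH-PAS list, which includes the *Per* genes, it was 1.32 for *Hif1a* (standard error 0.35, adjusted p = 0.0395), −1.56 for *Per2* (standard error 0.37, adjusted p = 0.0290) and −1.48 for *Per3* (standard error 0.34, adjusted p = 0.0248), calls lost in 10, 8 and 6 of 22 alternatives. Among the target genes it was 5.05 for *Ereg* (standard error 1.41, adjusted p = 0.0476), which had 0 to 26 counts in the libraries of the 3 other groups and 21 to 94 in Tet2-/- IR libraries. The call of *Ereg* was lost in 14 of 22 alternatives, 10 of the 12 leave-one-out fits among them, was not tested in another, and the value was −1.48 (adjusted p = 0.723) without both WT baseline libraries high in adipocyte markers, a fit with 1 WT baseline library. For *Scin* the difference was 1.35 (standard error 0.38, adjusted p = 0.0478), a call lost in 11 of 22 alternatives.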

How the results depend on the processing

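The count of AHR pathway genes called, 0 in each comparison, became 1 with DESeq2 at baseline and for IR in WT (*Ahrr*), 1 with the replicate block for IR in WT (*Ahrr*), and 0 to 1 when libraries were left out for IR in Tet2-/- kidneys (*Cyp1a1*). For the genotype after IR and the difference of the IR effects it was 0 in every alternative run. The replicate block gave 8 pathway list genes higher and 4 lower for IR in WT, against 5 and 2, and 7 lower for the difference of the IR effects, against 4, and changed no other call of the 7 genes.

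Signs turned in these cases. *Arnt* for the genotype after IR was 0.069 with library totals alone, 0.057 with limma on log2(FPKM + 1) and 0.064 on log2(FPKM + 0.1). *Cyp1b1* for IR in Tet2-/- kidneys was 0.25 with library totals alone, 0.0083 with upper quartile scaling, 0.17 and 0.22 with limma at the same pseudocounts, and 0.034 in a fit of all 12 libraries. Leaving out libraries gave −0.17 to 0.070 for *Tiparp*, −0.46 to 0.16 for *Cyp1b1*, −0.15 to 0.015 for *Arnt* and −0.57 to 0.10 for *Cyp1a1* at baseline, −0.096 to 0.011 for *Arnt* and −0.077 to 1.29 for *Cyp1b1* between genotypes after IR, −0.32 to 0.33 for *Cyp1b1* for IR in Tet2-/- kidneys, and −0.021 to 0.13 for *Arnt* in the difference. The cause was not tested.

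Counts over the 5 pathway lists moved more. At baseline 0 lower became 2 with DESeq2 and 0 to 1 without a library. After IR between genotypes, 2 higher became 5 with DESeq2, 1 with a mean FPKM of at least 1 and 1 with limma at either pseudocount, and without a library 0 to 3 higher and 3 to 7 lower (7 lower with all). For IR in WT, DESeq2 gave 8 higher and 4 lower, leaving out a library 0 to 7 and 0 to 3, and leaving out both WT baseline libraries high in adipocyte markers 0 and 0, a fit with 1 WT baseline library, assumed to vary like the others, that says nothing about those libraries. For IR in Tet2-/- kidneys, 17 higher became 11 with limma on log2(FPKM + 1). For the difference of the IR effects, 3 higher and 4 lower became 8 and 7 with DESeq2, 9 higher with library totals alone, 6 higher and 2 lower with limma on log2(FPKM + 1), 6 higher on log2(FPKM + 0.1), 0 to 6 and 2 to 6 without a library, and 0 and 0 without both adipocyte-high libraries, again with 1 WT baseline library. Of the 31 pathway calls named by the size of their change, 10 held in every alternative run, each for IR in Tet2-/- kidneys. Calls named after their values were seen are not among these 31. Between the genotypes after IR, those of *Kmo* and *Afmid* held in all 16 alternatives, while that of *Ereg* was lost in 7. Depth limits *Cyp1a2*, and low counts limit *Ahrr* and *Ereg*.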
